A study of Mus musculus with 4 samples.

Results

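mmu-miR-143, mmu-miR-145 and its passenger strand mmu-miR-145*, and mmu-miR-22 (miR-143, miR-145, miR-145* and miR-22 below) were followed as miRNAs of the skin stroma, the connective tissue, vessel walls and smooth muscle beneath the epidermis. The 4 were selected by name among the 710 mature mouse miRNAs of the chip. RNA came from abdominal skin of female C57BL/6JNarl mice, 6 to 8 weeks old, without wounds or genetic change. The skin had received 100 μl of a solution 24 hr earlier. It held 10 μg/μl of shikonin, a red naphthoquinone from Lithospermum erythrorhizon root, dissolved in acetone, or was acetone alone as the solvent control. There were 2 arrays of shikonin-treated and 2 of acetone-treated skin. Whether the arrays of a group represent different animals is not stated, although the study terms them biological replicates. The p-values thus refer to the variation between these arrays, part of which may be technical. The comparison asks whether the stromal miRNAs of the skin respond to shikonin.

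miR-143 and miR-145 are cut from a common primary transcript in the long noncoding RNA gene Carmn. In smooth muscle this transcript is switched on by serum response factor with its cofactor myocardin. The pair holds smooth muscle cells in their contractile state, in part by repressing Klf4 and Klf5, and both miRNAs are abundant in fibroblasts and pericytes while epithelial cells hold little of them. miR-145 is the guide strand, which is loaded into Argonaute, and miR-145* is the opposite arm of its hairpin, most of which is degraded. miR-22 is encoded in another long noncoding RNA gene, Mir22hg. It is expressed in many tissues, is known for its role in heart muscle, where it represses Hdac4, and in mouse skin it promotes regression of the hair follicle, so that it is less confined to stroma than the other members.

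Both arms of miR-22 are shown because the RefSeq miRNA table held an entry for 1 of the 4 members, miR-22. The opposite arm lay near background on these arrays. On GRCm38.p6, plus strand, the mature miR-22 lies at chr11:75463772-75463793 and miR-22* at chr11:75463734-75463755. Capitals mark the seed, bases 2 to 8, which pairs with target mRNAs. Of 1679 mature mouse miRNAs in that table, 1 has the seed of miR-22, namely itself, so no other miRNA of the table shares it.
miR-22: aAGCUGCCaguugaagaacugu
miR-22*: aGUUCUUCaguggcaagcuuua
In the hairpin, of 95 bases at chr11:75463716-75463810, capitals mark the mature miR-22 on the 3′ arm.
Mir22 hairpin: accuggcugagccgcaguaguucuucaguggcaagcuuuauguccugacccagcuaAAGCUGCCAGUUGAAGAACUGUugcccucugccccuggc

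Each miRNA had 8 spots on each array, and no spot of the 4 members was empty. A miRNA counted as above background where its median spot exceeded that of 34 miRNAs of brain, liver, pancreas, embryonic stem cells and testis by more than 3 median absolute deviations. The threshold was at 408 and 512 on the shikonin arrays and at 368 and 432 on the acetone arrays. Of all 710 miRNAs, 35.2% and 35.1% passed it on the shikonin arrays and 36.2% and 38.6% on the acetone arrays, 185 of them on all 4. The arrays of a group correlated with each other at 0.934 for shikonin and 0.931 for acetone (Pearson's r of normalized log2 values over all miRNAs, which are not independent replicates), and acetone replicate 1 lay farthest from the shikonin arrays (0.771 and 0.787). With 2 arrays a group, precision is limited throughout.

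miR-143, miR-145 and miR-22 were lower in shikonin-treated skin, with no overlap between the arrays of the groups, and miR-145* was not above background on any array. On the raw scale miR-22 was 2.83-fold, miR-143 2.74-fold and miR-145 2.20-fold lower with shikonin. After quantile normalization these differences were 1.59-fold, 1.86-fold and 2.04-fold, and none of the 4 members passed in limma over all 710 miRNAs. In that test 0 miRNAs were called lower (0%, with 78 at an unadjusted p under 0.05) and 2 higher (0.282%).

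The median spot of miR-143 had a raw intensity of 1436 and 1332 on the shikonin arrays, against 4025 and 3557 on the acetone arrays. Its 16 spots in shikonin-treated skin ran from 312 to 2177 and its 16 in acetone-treated skin from 2769 to 7954. No spot of a shikonin array therefore reached the dimmest spot of an acetone array. The spot of 312, on shikonin replicate 1, was the single spot of this miRNA under the background threshold.

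For miR-145 the median spot was 696 and 624 on the shikonin arrays and 1532 and 1368 on the acetone arrays. The medians did not overlap, but single spots did, with 504 to 1120 in shikonin-treated and 1072 to 3713 in acetone-treated skin. In shikonin-treated skin this miRNA approached background. Its median was 2.11 and 1.48 times the background level on the shikonin arrays and 4.97 and 3.74 times on the acetone arrays, and on shikonin replicate 2 its median exceeded the threshold with 7 of 8 spots.

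The median spot of miR-22 was 2201 and 2725 on the shikonin arrays, against 6513.5 and 7374 on the acetone arrays. As with miR-143 the spots of the groups stood apart, at 1800.5 to 3481 in shikonin-treated and 4633 to 12971 in acetone-treated skin. Spots of an array share a sample and were not used as replicates.

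miR-145* gave medians of 336 and 404 on the shikonin arrays and 312 and 376 on the acetone arrays, at 1.02 and 0.957 times and 1.01 and 1.03 times the background level. The raw values of the groups overlapped. With both groups below the threshold no fold is read from these values, and these arrays do not show whether the passenger strand changed with its guide. The passenger strand of the other hairpin, miR-22*, was above background on 1 array, acetone replicate 2, with medians of 364 and 404 on the shikonin arrays and 356 and 436 on the acetone arrays.

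**Figure D1:**
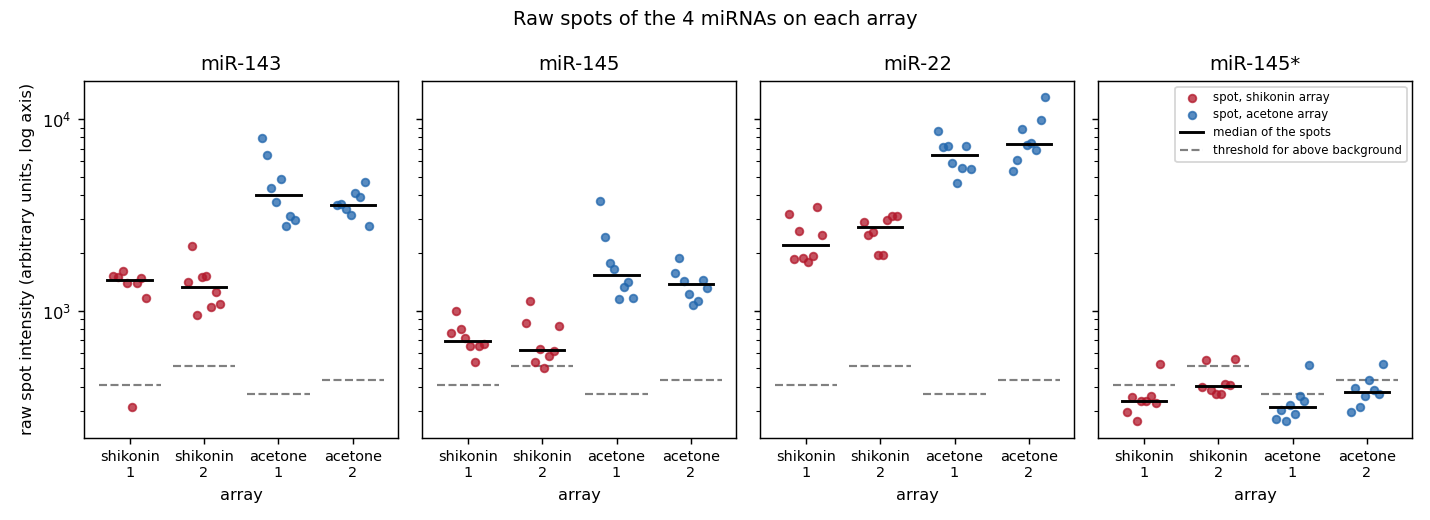
Raw spot intensity (log axis) of miR-143, miR-145, miR-22 and miR-145* on the 2 shikonin and 2 acetone arrays, with 8 spots per array as points, their median as a black bar and the background threshold of the array as a dashed line. The spots of miR-143 and miR-22 on the shikonin arrays lie below those on the acetone arrays, those of miR-145 overlap in part (up to 1120 with shikonin, from 1072 with acetone), and each median of miR-145* lies under the threshold of its own array.

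Normalization between arrays changed the size of these differences. Quantile normalization replaces each value by the mean of the values of that rank on all 4 arrays, so the result follows the rank of a miRNA on its array. miR-22 ranked 31st and 23rd of 710 on the shikonin arrays and 15th on both acetone arrays. miR-143 ranked 51st and 57th on the shikonin arrays, against 26th and 36th on the acetone arrays. The largest shift in rank was that of miR-145, which stood at 111 and 162 with shikonin and at 52 and 79 with acetone.

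On the normalized log2 scale miR-143 was at 10.72 and 10.56 in shikonin-treated skin and at 11.77 and 11.30 in acetone-treated skin. Its means were 10.64 ± 0.12 and 11.53 ± 0.34 (shikonin and acetone, SD, n = 2 each). The groups were separated by 0.57, and the log2 fold change was -0.89 (SE 0.19), with a limma adjusted p of 0.151 (unadjusted 0.0104).

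miR-145 was at 9.59 and 9.11 in shikonin-treated skin and at 10.69 and 10.07 in acetone-treated skin, with means of 9.35 ± 0.34 and 10.38 ± 0.43 (SD, n = 2 each). The gap between the groups was 0.48. The log2 fold change of -1.03 (SE 0.29) was the largest of the members, and with the wider spread of its arrays the limma adjusted p was 0.194 (unadjusted 0.0239).

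miR-22 was at 11.52 and 11.94 in shikonin-treated skin and at 12.40 on both acetone arrays, with a mean of 11.73 ± 0.30 for shikonin (SD, n = 2). The SD of 0 in acetone-treated skin results from its equal rank on both arrays and does not measure the spread of the animals or samples. The log2 fold change was -0.67 (SE 0.17), with a limma adjusted p of 0.175 (unadjusted 0.0167).

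miR-145* was at 8.48 and 8.43 in shikonin-treated skin and at 8.50 and 8.52 in acetone-treated skin, where all 4 values are background and no fold change is read from them. After normalization its groups did not overlap, as those of 29.8% of the 369 miRNAs above background on no array did not. Exact permutation tests over the 4 arrays, two-sided, gave p = 0.333 for each of the 4 members, the smallest p that 2 against 2 arrays allow.

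These differences have to be read against the chip. On the normalized scale the groups did not overlap, lower with shikonin, for the 3 members above background on all arrays. This was so for 42.7% of the 185 such miRNAs and for 26.8% of all 710 (22.4% did not overlap with shikonin higher). At an unadjusted limma p under 0.05 these 3 members were lower, as were 31.4% of the 185 and 11% of all 710 (6.62% were higher). miR-145* is left out of both counts. Of the 185, 23 had a lower fold change than miR-145, 31 a lower one than miR-143 and 53 a lower one than miR-22. The median log2 fold change was -0.01 over all miRNAs and -0.08 over the 185. It was -0.36 over the 150 of these outside the families of miR-466, miR-467, miR-669 and miR-297, whose genes are repeat-rich, and 1.12 over the 35 within them.

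**Figure D2:**
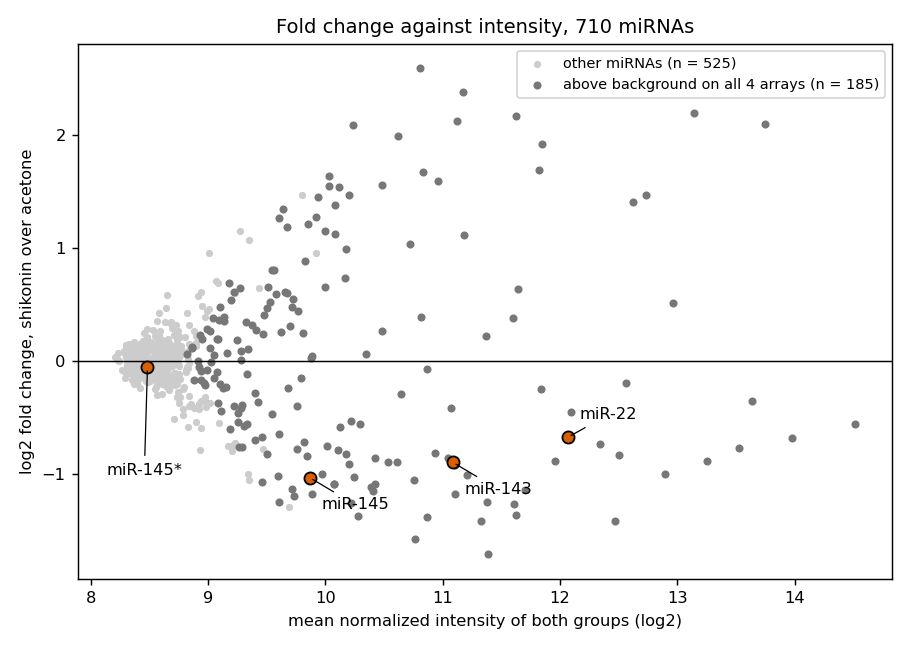
Log2 fold change of shikonin over acetone (vertical axis) against the mean normalized log2 intensity of both groups (horizontal axis) for 710 miRNAs, with the 185 above background on all 4 arrays in dark grey and the 4 members in orange. miR-143, miR-145 and miR-22 lie at -0.89, -1.03 and -0.67 among many bright miRNAs below 0, and miR-145* lies in the cloud of dim miRNAs at the left.

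Since scaling could turn or enlarge a difference, the members were set against the median of all miRNAs under each scaling. Without normalization and with scaling of each array to its 75th percentile, over all or over the 185 bright miRNAs, miR-143 lay 1.59 below that median, miR-145 1.28 below and miR-22 1.64 below on the log2 scale. These settings differ by a constant per array alone, so their distances from the median are equal by construction and are not separate results. The median itself was shifted by 0.14 without normalization and by 0.61 with scaling over bright miRNAs. With quantile normalization the members lay 0.89, 1.02 and 0.67 below the median, and with cyclic loess 0.58, 0.75 and 0.46 below. The order of the members therefore depended on the method. miR-22 was the lowest after scaling, and miR-145 after quantile normalization of median spots on all 4 arrays or after loess. All of these spots still held their background, which understates the fold of the dimmer miR-145 more than those of miR-143 and miR-22. The order after scaling is therefore not free of background. The order after quantile normalization was itself not fixed. With the mean of log2 spots miR-143 was the lowest (log2 fold change -1.01, against -0.99 for miR-145), and without shikonin replicate 2 miR-22 was the lowest at -0.88, against -0.81 for miR-143 and -0.79 for miR-145.

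Calls depended on the method in the same way. When each array was scaled to the 75th percentile of the whole chip, miR-22 reached -1.57 (log2 fold change, SE 0.10) and passed in limma (adjusted p = 0.0346), 1 of 2 miRNAs called there, while miR-143 at -1.52 (adjusted p = 0.0912) and miR-145 at -1.20 (adjusted p = 0.113) did not. When the repeat-rich families were left out before quantile normalization, miR-143 was at -0.44 and miR-22 at -0.41, against -0.84 for miR-145, and none of the 3 passed in limma (adjusted p = 0.383, 0.418 and 0.217). With all miRNAs kept in the quantile normalization, leaving out shikonin replicate 1 put miR-22 at -0.46.

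Background also affected the size, since no background had been subtracted from the spots. After normexp correction miR-145 was 2.49-fold lower (log2 fold change -1.32, SE 0.35), miR-143 1.98-fold lower (-0.98, SE 0.25) and miR-22 1.63-fold lower (-0.71, SE 0.23). The limma adjusted p of these was 0.115, 0.109 and 0.158. In the value table deposited by the authors, miR-143 had log2 values of 11.15 and 9.96 on the shikonin arrays against 12.71 and 11.68 on the acetone arrays, miR-22 11.34 and 11.28 against 13.05 and 12.81, and miR-145 10.05 and 7.91 against 11.19 and 10.02. The groups were separate there for miR-143 and miR-22, while miR-145 on shikonin replicate 1 exceeded acetone replicate 2. None of the members passed on these values (limma adjusted p = 0.981 for each, with 23 miRNAs at an unadjusted p under 0.05 and 0 called).

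**Figure D3:**
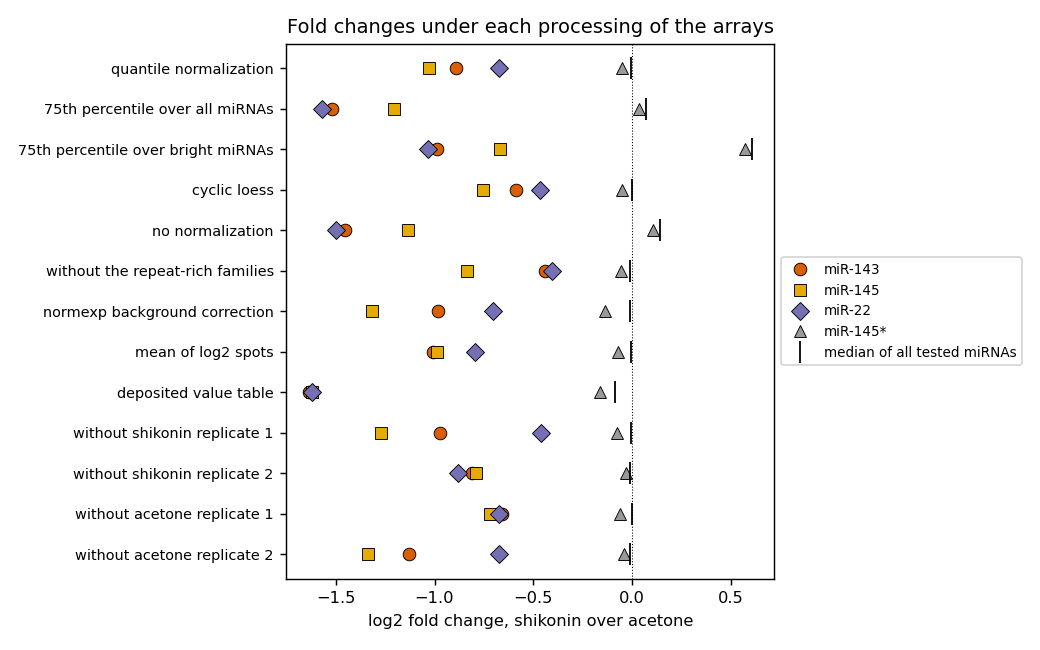
Log2 fold change of shikonin over acetone (horizontal axis) of the 4 members under each processing of the arrays (rows), with the median of all tested miRNAs as a vertical tick. miR-143, miR-145 and miR-22 lie below 0 in every row, from -1.64 to -0.41, and miR-145* keeps close to the median of all miRNAs. In the rows with an array left out the sign of miR-143, miR-145 and miR-22 could not turn, since their normalized groups did not overlap.

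Since miR-143 and miR-145 derive from a common transcript, their values were set against each other on each array. The absolute offset depends on the probes, and only its change between the groups can be read. On the raw log2 scale miR-143 minus miR-145 was 1.04 and 1.09 on the shikonin arrays and 1.39 and 1.38 on the acetone arrays, without overlap. That change of -0.32 exceeded the distances within the groups (0.049 for shikonin and 0.015 for acetone). A single scaling factor per array leaves it as it is, but does not remove the background, which makes up more of the dimmer miR-145. With the background level subtracted, the medians of miR-143 were 1106 and 910 with shikonin and 3717 and 3191 with acetone. Those of miR-145 were 366 and 202 against 1224 and 1002. The change of -0.32 is therefore not read as a difference between miR-143 and miR-145. After quantile normalization miR-143 minus miR-145 was 1.13 and 1.45 on the shikonin arrays and 1.08 and 1.22 on the acetone arrays. That was a change of 0.14 in the opposite direction and less than the distance of 0.32 between the shikonin arrays. The exact permutation test, two-sided, gave p = 0.333 for the raw values, the smallest that 4 arrays allow, and p = 0.667 for the normalized ones. The change was 0.34 after normexp correction, 0.40 without the repeat-rich families and 0.17 with cyclic loess, against -0.02 with the mean of log2 spots or in the value table. Which of these guide strands differed more between the groups thus depended on the processing.

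Profiles over the 4 arrays were compared among the 185 bright miRNAs by the Euclidean distance of centred log2 values, as a description. miR-145 was closest to miR-100 (distance 0.18), miR-30d (0.19) and miR-152 (0.22), of which miR-100 and miR-152 belong to the fibroblast and mesenchyme list. miR-143 was closest to miR-181a (0.15), miR-30a (0.16) and miR-720 (0.18), a fragment of a tRNA rather than a miRNA. The distance between miR-143 and miR-145 was 0.28, where the median distance to the others was 0.95 from miR-143 and 1.17 from miR-145. Still, 14 miRNAs were closer to miR-143 than miR-145 was, and 6 were closer to miR-145 than miR-143 was. miR-22 was farther from both, at 0.58 and 0.85, and its nearest profiles were miR-191 and miR-425 (0.28 and 0.29), which share a primary transcript, and the collagen-repressing miR-29a (0.29). In miR-22 and its neighbours shikonin replicate 2 lay above shikonin replicate 1, and in miR-143, miR-145 and their neighbours it lay below.

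Other miRNAs of fibroblasts and mesenchyme were examined next, in a list that shares no member with the lists below. Of 17, 13 were above background on all arrays and 1, miR-140, on none. Lower fold changes were found for 15 of 17, and the groups did not overlap for 13 in this direction and for 1 in the other, against 26.8% and 22.4% of all 710 miRNAs. Of the 13 above background on all arrays, 11 had a lower fold change, against 52.4% of the 185, and 10 did not overlap with shikonin lower, against 42.7% of the 185. At an unadjusted limma p under 0.05, 10 were lower and 0 higher, against 11% lower and 6.62% higher on the whole chip, and 0 passed after adjustment. The median log2 fold change was -0.86 over the 17, against -0.01 over all miRNAs, and -0.88 over the 13, against -0.08 over the 185. The list holds no repeat-rich miRNA, and over the 150 bright miRNAs outside those families the median was -0.36.

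The lowest of the list was miR-199a-3p, a miRNA of dermal mesenchyme, with median spots of 976 and 904 on the shikonin arrays, against 3721 and 3769 on the acetone arrays, and a log2 fold change of -1.57 (SE 0.20, limma adjusted p = 0.125). The brightest, miR-23b, had median spots of 3765 and 2817 with shikonin and 9890 and 8414 with acetone (-0.82, SE 0.20, limma adjusted p = 0.175). miR-214, which is made from a transcript shared with miR-199a, was the highest of the list at 1.11 (SE 0.57, limma adjusted p = 0.451). Its normalized log2 values were 10.95 and 12.53 in shikonin-treated and 10.56 and 10.69 in acetone-treated skin, so this difference was smaller than the distance between the shikonin arrays. Its raw median spots overlapped, at 1616 and 3341 with shikonin and 1416 and 2281 with acetone.

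A further list held miRNAs known to regulate the switch of smooth muscle cells between contractile and proliferating states, the process in which miR-143 and miR-145 act on the contractile side. Of 10 such miRNAs, 9 were measured, 5 of them above background on all arrays. miR-221, which with miR-222 promotes proliferation of vascular smooth muscle, was dim at 416 and 524 on the shikonin arrays and 448 and 500 on the acetone arrays, and miR-222 was above background on none. The brightest was miR-26a, which holds back the differentiation of cultured human smooth muscle cells, with 4697 and 3081 on the shikonin arrays against 15460 and 10394 on the acetone arrays (log2 fold change -0.99, SE 0.18). miR-24 was the lowest at -1.42 (SE 0.25), and miR-490 the highest at 0.22 (SE 0.14), above background on 1 shikonin array alone. The limma adjusted p was 0.134 for miR-26a and miR-24 and 0.504 for miR-490. In all 8 of 9 had a lower fold change. At an unadjusted limma p under 0.05, 5 of 9 were lower, against 11% of all 710 miRNAs, and 3 of the 5 bright ones, against 31.4% of the 185. None passed after adjustment (0 of 9). The median log2 fold change was -0.59 over the 9, against -0.01 over all miRNAs, and -0.99 over the 5, against -0.08 over the 185. Over the 150 bright miRNAs outside the repeat-rich families, to which none of the 9 belongs, it was -0.36.

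**Figure D4:**
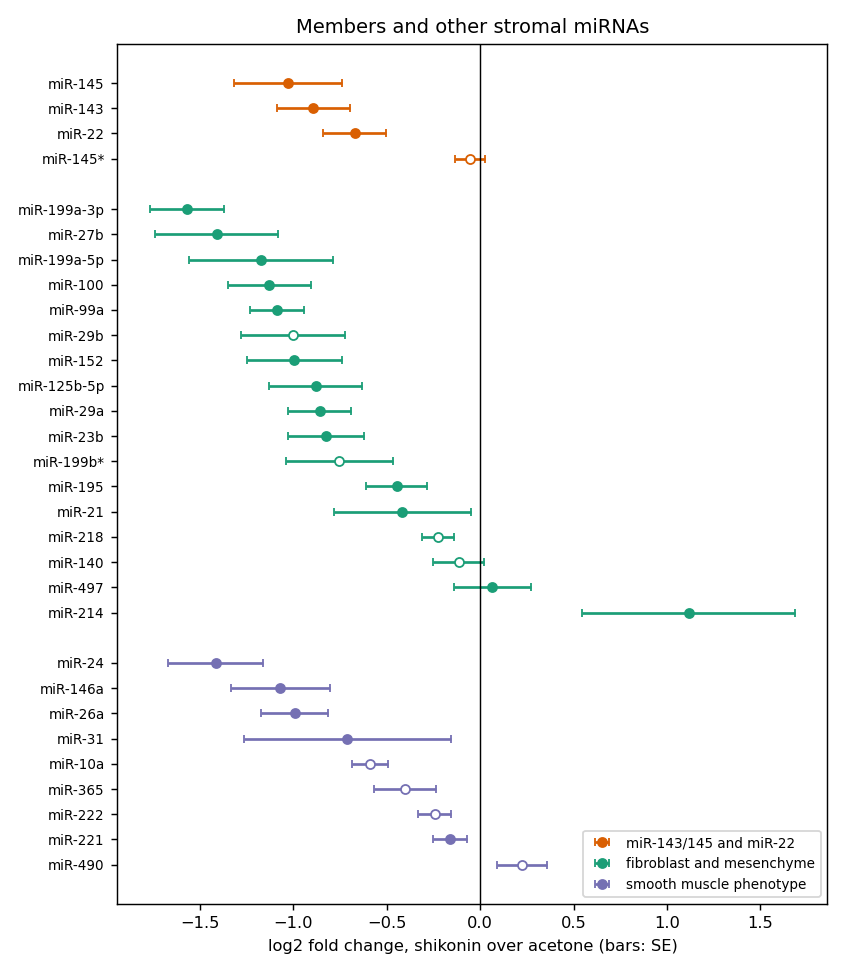
Log2 fold change of shikonin over acetone with its limma SE for the 4 members (orange), 17 other miRNAs of fibroblasts and mesenchyme (green) and 9 of the smooth muscle phenotype (purple), filled where a miRNA was above background on all 4 arrays. miR-143, miR-145 and miR-22 lie within the range of the green and purple miRNAs, which runs from -1.57 (miR-199a-3p) to 1.11 (miR-214). The purple list was chosen for regulators of smooth muscle, not for miRNAs confined to stroma.

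By what is known of them miR-143 and miR-145 are stromal, while miR-22 is expressed in many tissues and less confined to stroma. The samples were whole skin, in which fewer cells of a type and less of a miRNA per cell cannot be told apart. The miRNAs listed for other cell types were summed, as raw median spots without normalization or background correction. Such sums do not measure the number of cells. A single bright miRNA can hold much of a sum, as miR-103 did for adipocytes (3761 on acetone replicate 2). Lists of 10 keratinocyte miRNAs gave 7613 and 5616 on the shikonin arrays and 15199.5 and 17563.5 on the acetone arrays, with a median log2 fold change of -0.90 and 9 of 10 lower. For 6 adipocyte miRNAs the sum was 3608 and 4120 with shikonin and 7398 and 8602 with acetone, for 7 of striated muscle 3916 and 5396 against 12154 and 8646, and for 2 of endothelium, where miR-126-3p was above background on all arrays and miR-126-5p on none, 1500 and 1700 against 4685 and 3985. The corresponding medians were -0.62, -0.78 and -0.56. Sums of 7 leukocyte miRNAs overlapped between the groups, at 4080 and 5809 with shikonin and 4504 and 6657 with acetone, with a median of -0.11 and miR-142-3p and miR-155 above background on no array. The sum of the 4 members was 4669 and 5085 with shikonin and 12382.5 and 12675 with acetone. Among miRNAs above background on all arrays, fold changes below 0 were counted in each list, against 52.4% of the 185. They were found for 3 of 4 of the keratinocyte, 5 of 5 of the adipocyte and 3 of 3 of the striated muscle list. For leukocytes it was 2 of 4. Above 0 were miR-96 of keratinocytes at 0.20 (log2 fold change, SE 0.08) and, of leukocytes, miR-223 at 0.40 (SE 0.45) and miR-342-3p at 0.25 (SE 0.12). Over miRNAs above background on all arrays the median was -1.08 (keratinocyte), -0.67 (adipocyte), -0.81 (striated muscle) and -0.01 (leukocyte). It was -0.08 over the 185 and -0.36 over the 150 outside the repeat-rich families. Of endothelium, miR-126-3p alone was at -1.17. At an unadjusted limma p under 0.05, 6 of 10, 4 of 6, 1 of 7 and 2 of 7 were lower in the same order. This was so for 1 of 2 of endothelium and 11% of all 710. In each of these lists 0 miRNAs passed in limma after adjustment, and their part in the differences of miR-143, miR-145 and miR-22 was not tested.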

How the data were processed

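Mature miRNAs were measured on a microfluidic biochip (Geniom biochip, febit), on which a captured miRNA primes an enzymatic extension with biotinylated nucleotides. Probes are complementary to the mouse miRNAs of miRBase 14.0. The spot table deposited by the authors holds linear intensity values, neither normalized nor background-subtracted. The value table deposited by the authors gives each miRNA a single log2 value on every array. Quantile normalization is named for it, yet its columns have medians of 6.43 and 6.11 (shikonin) and 6.05 and 5.75 (acetone). Its columns of replicate 2 follow the ranks of the median spots (Spearman 1.00 in both groups) and those of replicate 1 less closely (0.921 and 0.914), so their scale stays unknown and the table served as an alternative.

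Samples were grouped by their titles. Median spots, empty spots left out, were quantile normalized on the linear scale, floored at 1 and log2 transformed. Shikonin was compared with acetone over all 710 miRNAs, unfiltered, by lmFit and eBayes of limma 3.58.1, run in R 4.3.3. Tests were two-sided, p-values were adjusted after Benjamini and Hochberg, and the threshold was 0.05. Fold changes of dim miRNAs are understated where no background is removed. The code was tested on simulated data. Members, lists, tests and the rule for background were chosen with earlier results of these data known. Named were the 4 members, miR-22* and the 3 nearest profiles of miR-143, miR-145 and miR-22. Also named were the brightest, highest and lowest miRNA of the fibroblast and mesenchyme and of the smooth muscle phenotype list. Other miRNAs named were chosen after their values had been seen. Alternatives were the normalization (scaling to the 75th percentile over all or bright miRNAs, cyclic loess, none, or quantiles without repeat-rich families), normexp with an offset of 50, the mean of log2 spots, an intensity trend, a filter for miRNAs above background on at least 2 arrays, the value table, each array left out, and the replicate number as a block. Sequences and host genes were from RefSeq (GRCm38.p6), as no build is named in the files.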

Additional observations from a re-analysis of the deposited data

How the results depend on the processing

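miR-143, miR-145 and miR-22 kept a negative log2 fold change under all 16 alternatives, within -1.64 to -0.44, -1.62 to -0.67 and -1.62 to -0.41. The intensity trend, the filter and the replicate block, also when crossed (below), leave the fold change of the main setting unchanged. Their sign was thus fixed in advance and adds nothing. Leaving out an array could not turn the sign of miR-143, miR-145 or miR-22 either, since their normalized groups did not overlap. miR-143, miR-145 and miR-22 kept their side of the threshold under 14, 15 and 13 alternatives. They passed in limma with no normalization at -1.45, -1.14 and -1.50 (adjusted p = 5.52e-04, 0.00996 and 3.24e-04). miR-143 and miR-22 also passed with scaling over bright miRNAs, at -0.99 and -1.03 (adjusted p = 0.0409 and 0.0300), and miR-22 with scaling over all miRNAs at -1.57 (adjusted p = 0.0346). Without normalization and with scaling over bright miRNAs the test used a single pooled spread for all miRNAs (SE 0.34 and 0.35), so these calls do not rest on the scaling alone. Over the 16 alternatives the adjusted p ranged up to 0.981 for each. With each array left out in turn, the log2 fold change was -1.13 to -0.66 for miR-143, -1.34 to -0.72 for miR-145, -0.88 to -0.46 for miR-22 and -0.08 to -0.03 for miR-145*. The values of miR-145*, at background and not read as a fold, turned positive with no normalization (0.11) and with scaling over all (0.037) or bright miRNAs (0.57), and was not tested under the filter.

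Of all miRNAs, limma called 2 in the main setting, 89 with scaling over bright miRNAs (65 higher, 24 lower), 83 with no normalization (30 and 53), 38 with an intensity trend (24 and 14), 1 with the mean of log2 spots, 1 under the filter, and 0 with cyclic loess or the value table (115 and 23 at an unadjusted p under 0.05). With any array left out, 0 were called (66 to 107 unadjusted). With the replicate number as a block 0 were called (116 unadjusted), and the adjusted p of miR-143, miR-145 and miR-22 was 0.193, 0.152 and 0.229. Deviations of same-numbered arrays from their group means had a correlation of -0.28, which gives no sign that the numbers pair the arrays. With 2 arrays a group this cannot exclude a pairing. A block with the numbers crossed, added after the data were seen, called 35. Apart from the pooled spread, the cause of these changes was not tested.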
